A study of Mus musculus with 2 samples.

Results

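The Olig2 peaks at 3 genes of the mouse genome, Csrp1, Wscd1 and Zcchc24, were laid out one by one. They are 15 of the 4215 peaks in the deposited list, namely the 7 whose nearest gene is Csrp1, the 6 of Wscd1 and the 2 of Zcchc24. The genes were chosen by these same values, for many peaks or for very strong ones. Numbers and scores of peaks are therefore given as a description, with no test. Zcchc24, with 2 listed peaks, is not a locus of many peaks.

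The list came from ChIP-Seq for Olig2 with a polyclonal rabbit antibody on whole spinal cord of male C57BL/6 mice 6 weeks old, described by the study as healthy. Sheared chromatin of the same tissue was the Input Control, which is not analysed here. The authors pooled independent experiments, each IP made from pooled cords, and called peaks once, so each peak has 1 value and no replicate, and no spread between mice or ChIPs can be given. The list names no scale for its score and gives no read counts, so the number of reads behind a peak is unknown, and scores are only ranked and compared within the list. The list gives no levels of RNA or protein for the 3 genes, and in whole tissue the cell type that carried a bound site is not resolved.

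Olig2 is a basic helix-loop-helix transcription factor of the oligodendrocyte lineage, the cells that make central myelin. Factors of this family bind DNA as dimers at the E-box, a short word of the form CANNTG whose middle bases differ between factors. Csrp1 encodes a cysteine- and glycine-rich protein with LIM domains (zinc-binding domains that hold protein partners) that binds alpha-actinin and zyxin on actin filaments. Wscd1 encodes a protein with WSC domains and a region related to sulfotransferases, and Zcchc24 a protein with a zinc finger of the CCHC type.

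The sequences of 9 of the 15 peaks carry the comparison that follows. They are the strongest peaks of each gene, the Csrp1 promoter peak and the third strong peak of Wscd1, which lack an E-box, a Csrp1 peak with another form of the E-box, and the weakest of the 15, Wscd1 at +3193 bp. Each is the 51 bp of the peak on the plus strand of GRCm38.p6, 5′ to 3′, with every CANNTG in capitals. Peaks are named by the signed distance of their center from the transcription start site (TSS) of the gene.
Csrp1 at -42248 bp: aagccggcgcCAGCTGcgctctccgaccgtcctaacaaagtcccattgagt
Csrp1 at +19 bp: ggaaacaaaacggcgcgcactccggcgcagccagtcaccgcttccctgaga
Csrp1 at +5664 bp: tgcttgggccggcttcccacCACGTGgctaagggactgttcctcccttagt
Csrp1 at +12050 bp: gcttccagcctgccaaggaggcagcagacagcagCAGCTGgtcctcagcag
Wscd1 at +3193 bp: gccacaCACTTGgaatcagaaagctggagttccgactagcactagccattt
Wscd1 at +12632 bp: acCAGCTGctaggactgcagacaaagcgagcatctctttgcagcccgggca
Wscd1 at +19227 bp: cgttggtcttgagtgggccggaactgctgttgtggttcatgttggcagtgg
Wscd1 at +20054 bp: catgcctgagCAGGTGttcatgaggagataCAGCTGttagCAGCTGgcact
Zcchc24 at +2794 bp: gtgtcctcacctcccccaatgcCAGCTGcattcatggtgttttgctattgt
The strongest peak of each of the 3 genes holds CAGCTG, a palindromic form of the E-box. So does a weak peak not printed here, Wscd1 at -92106 bp with a score of 8.90. Of all listed peaks, 32.9% hold CAGCTG in their 51 bp.

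**Figure D1:**
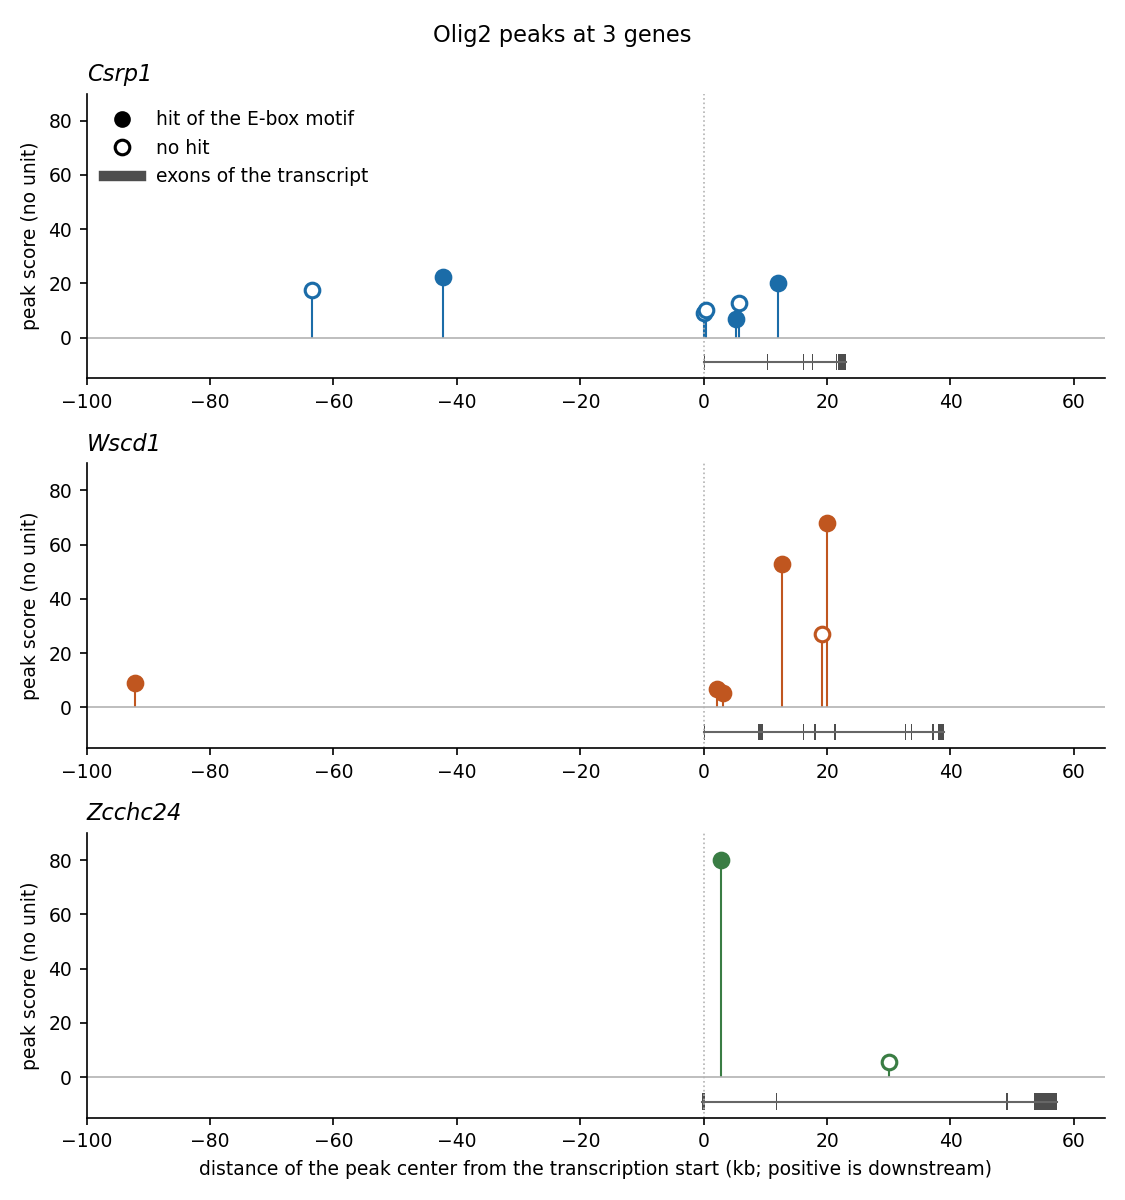
Score of each of the 15 listed Olig2 peaks (vertical axis, no unit) by the distance of its center from the TSS of Csrp1, Wscd1 or Zcchc24 (horizontal axis, kb, positive downstream in the direction of the gene). Filled points carry a hit of the E-box motif, open points do not, and bars under each plot are exons, with short ones widened to 250 bp. The peaks of Csrp1 stay between 6.71 and 22.5, while 1 peak of Zcchc24 (79.9) and 2 of Wscd1 (52.7 and 67.9) stand high inside the gene.

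Csrp1 (chromosome 1, 135720063 to 135752229, plus strand) had 7 peaks with scores from 6.71 to 22.5, spread over 75551 bp from far upstream to intron 2. None stood far above the others, and 4 of the 7 exceeded the median of all listed peaks, 11.6.
The peak at -63501 bp (chr1:135665671-135665721) had a score of 17.4, rank 1282 of 4215, and was annotated as intergenic. Its sequence was 76.5% G and C, the highest of the 15, and no CANNTG lay in the 200 bp around its center.
The peak at -42248 bp (chr1:135686924-135686974), also annotated as intergenic, was the strongest of the gene with a score of 22.5 (rank 861). It held CAGCTG at -12.5 bp from its center and another copy at 31.5 bp, outside the 51 bp.
Near the TSS, the promoter peak at +19 bp (chr1:135729191-135729241) had a score of 8.99 and the peak at +365 bp in intron 1 (chr1:135729537-135729587) a score of 10.3. Their centers were 346 bp apart, the closest pair among the 15 peaks. Neither held CANNTG in its 51 bp, and each had CAGCTG farther out, at 51.5 and -52.5 bp from the center. These peaks near the TSS ranked 2722 and 2389, below both upstream peaks of the gene.

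A second close pair lay in intron 1, with centers 480 bp apart. The peak at +5184 bp (chr1:135734356-135734406) was the weakest of the gene, with a score of 6.71. Its hit of the E-box motif was the word TCCAGCTT, which is no E-box, and 15 of its 51 bases are masked as repeats in the reference. The peak at +5664 bp (chr1:135734836-135734886) had a score of 12.9 and no hit of the E-box motif, yet it held the E-box CACGTG at -2.5 bp from its center, a form bound by other helix-loop-helix factors such as Myc and Usf proteins. The peak at +12050 bp in intron 2 (chr1:135741222-135741272) had a score of 20.03 (rank 1021), with CAGCTG at 11.5 bp from its center. Thus the strongest upstream peak and the strongest peak within the gene were the 2 of Csrp1 with CAGCTG in their 51 bp.

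The assignment of the upstream peaks to Csrp1 depends on the annotation. In RefSeq both lie in introns of Nav1, the adjacent gene on the opposite strand (135434580 to 135688350), which encodes neuron navigator 1, a microtubule-associated protein of growing neurites. The peak at -42248 bp lies 1372 bp downstream of the start of a predicted Nav1 transcript, and the peak at -63501 bp lies at -7190 bp from the start of another. With all protein-coding transcripts of RefSeq, Nav1 was the nearest gene of both and Csrp1 kept 5 peaks. With curated RefSeq transcripts only, or with GENCODE vM21, Csrp1 kept 7. The curated set holds a second start of Csrp1 at 135720063, which shortens the distances of the upstream peaks to -54367 and -33114 bp. Nav1 was itself listed as the nearest gene of 3 further peaks, all with the E-box motif and scores up to 14.6. On the other side, Phlda3, a pleckstrin homology domain protein that restrains Akt signaling, had 1 peak at +14426 bp with a score of 32.5, above all 7 of Csrp1.

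Wscd1 (chromosome 11, 71749893 to 71789649, plus strand) had 6 peaks that fell into 3 strong ones in its introns and 3 weak ones. The strong ones scored 67.9, 52.7 and 26.9 and the weak ones 8.90, 6.71 and 5.25, with none between. All 3 weak ones lay below the median of the list.
The weak peak at -92106 bp (chr11:71658572-71658622) was annotated as intergenic within an L1 repeat (Lx8b), and 21 of its 51 bases are masked. It held CAGCTG at -13.5 bp from its center. In RefSeq it lies in an intron of the long non-coding RNA gene Gm33964.
The other weak peaks lay in intron 1 of 8, at +2132 bp (chr11:71752810-71752860, score 6.71) and +3193 bp (chr11:71753871-71753921, score 5.25, rank 3863). Both carried the E-box motif, the first as CAGATG and the second as the word AAGCTGGA, which is no E-box. The peak at +3193 bp held the E-box CACTTG elsewhere in its 51 bp. No listed peak lay nearer to the Wscd1 TSS than +2132 bp.

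The strong peaks of Wscd1 lay within 7422 bp of one another, in introns 2 and 4. The peak at +12632 bp in intron 2 (chr11:71763310-71763360) had a score of 52.7, rank 142, with a single CAGCTG at -20.5 bp from its center and no other E-box in the 200 bp. The peak at +20054 bp in intron 4 (chr11:71770732-71770782) had a score of 67.9, rank 61. It held CAGCTG at 7.5 and at 17.5 bp from its center, 10 bp apart, and CAGGTG at -12.5 bp. Of all 4215 peaks, 117 (2.78%) held more than 1 CAGCTG in their 51 bp, and this was the only one of the 15.
Between them, at +19227 bp in the same intron (chr11:71769905-71769955), a peak with a score of 26.9 (rank 605) held no E-box in its 51 bp and had no hit of the E-box motif. In the 200 bp around it, CAGCTG lay at -88.5 and 49.5 bp. Its center was 827 bp from that of the strongest peak. A predicted RefSeq transcript of Wscd1 starts in the same intron, and relative to that start the strongest peak lies at -514 bp and its weaker neighbor at -1341 bp. GENCODE vM21 and the curated RefSeq transcripts place their starts at the 5′ end of the gene, 19381 and 19742 bp from the strongest peak.

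Zcchc24 (chromosome 14, 25711644 to 25769072, minus strand) had 1 peak near the top of the list and 1 near its bottom. The peak at +2794 bp in intron 1 of 3 (chr14:25766037-25766087) had a score of 79.9 and shared rank 33 with a peak near Gm5294, also at 79.9. The peaks just above had a score of 80.8 and the one just below 79.4. Its CAGCTG was centered at -0.5 bp from the peak center, the closest of any E-box of the 15 peaks, and it was the only CANNTG in the 200 bp.
The peak at +30044 bp in intron 2 of 3 (chr14:25738787-25738837) had a score of 5.41, rank 3806. It had no E-box in its 51 bp and no CAGCTG in 200 bp, and 11 of its bases are masked as repeats. The centers of the 2 peaks lay 27250 bp apart. The strong peak held 93.7% of the summed score of the gene.

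The strong Zcchc24 peak was also one of the sites for which the study designed primers, on the peak (ON-target) and away from it (OFF-target). By ChIP-qPCR in independent experiments, the paper reports enrichment over input at every ON-target site tested and none appreciable with the OFF-target primers. Each primer matched chromosome 14 of GRCm38.p6 at 1 place. They are printed because they frame the strong E-box and a sequence outside the listed peaks.
ON-target forward: ggttactcaggacccttggc
ON-target reverse: ggctgctccctccacaatag
OFF-target forward: tggcttagaggtcacaccct
OFF-target reverse: gagggctaacgggtgagttt
The ON-target product spans chr14:25765959-25766100, 142 bp, and covers the whole peak, with its center 33 bp from the peak center. The OFF-target product spans chr14:25787037-25787187, 151 bp, with its center at -18256 bp from the TSS and 20950 bp of sequence between it and the nearer edge of the strong peak. The ON-target product holds 1 CAGCTG, that of the peak. The OFF-target product, in which no listed peak lies, holds 1 CAGCTG as well. G and C made up 56.3% of the first product and 55.0% of the second.

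The 15 scores centered near the middle of the list. Their median was 12.9, against 11.6 for all listed peaks with quartiles of 7.76 and 19.98. The median of Csrp1 was 12.9 and that of Wscd1 17.9, while Zcchc24 had one score at each end. The strongest peak of Csrp1 ranked 807 among the strongest peaks of the 3463 nearest genes, that of Wscd1 61 and that of Zcchc24 33. By summed score Wscd1 ranked 3, Csrp1 32 and Zcchc24 65. In Wscd1 the 2 strongest peaks held 71.6% of the sum, and in Csrp1 43.1%. Scores take repeated values in the list. The score of 6.71 at Csrp1 +5184 bp and at Wscd1 +2132 bp was 1 value shared by 68 peaks, so ranks within such a group carry no order.

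**Figure D2:**
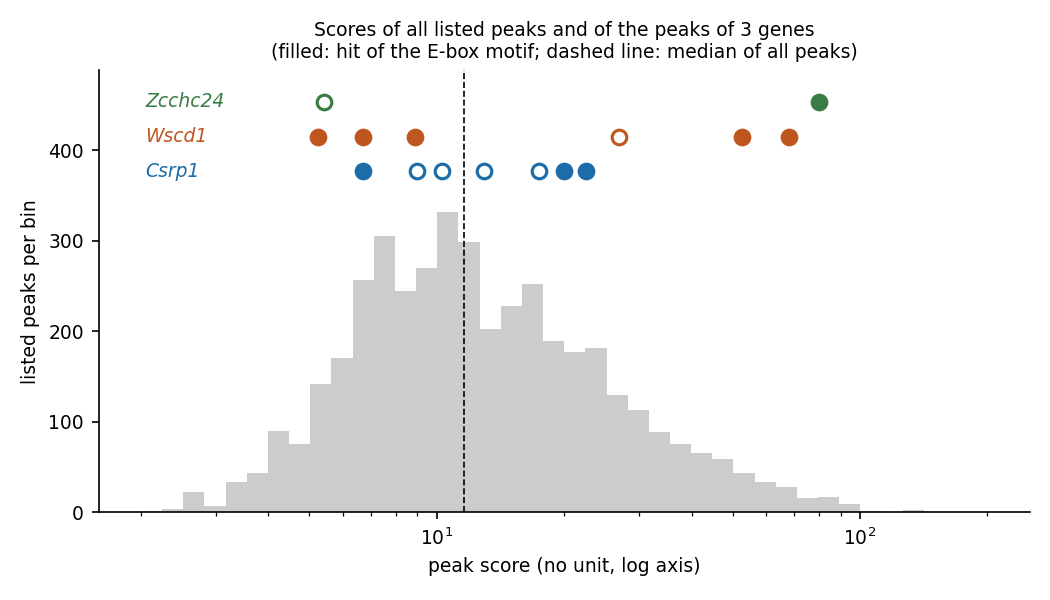
Histogram of the scores of all 4215 listed peaks (horizontal axis, log scale, no unit; vertical axis, peaks per bin) with the peaks of Csrp1, Wscd1 and Zcchc24 as points above it. Filled points carry a hit of the E-box motif and the dashed line is the median of all peaks, 11.6. The 3 points farthest to the right, at 79.9, 67.9 and 52.7, are filled, and the weakest point of Wscd1, at 5.25, is filled too.

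Few genes had as many listed peaks as Csrp1 and Wscd1. Of the 3463 nearest genes, 2898 had 1 peak, 435 had 2, 92 had 3, 29 had 4 and only 9 had 5 or more. Csrp1, with 7, was among those with the highest number, and its summed score was 98.8. Wscd1 shared 6 with Septin9, a septin of the cytoskeleton, and Chd7, a chromatin remodeler. The summed score of Wscd1 was 168, against 102.5 and 81.7 for these genes. The genes just below, with 5 peaks, were Zfpm1 (summed score 130.1), Vamp3 (87.3), Zfp536 (78.1) and Iqsec1 (68.0). Among the 435 genes with 2 peaks, like Zcchc24, the median of the highest score was 18.8, and 8 had a peak stronger than that of Zcchc24.

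**Figure D3:**
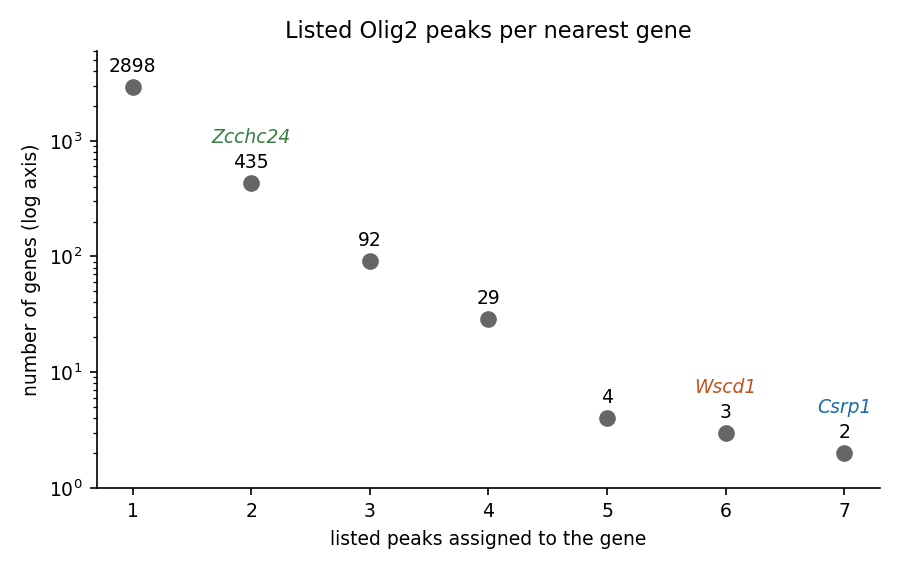
Number of genes (vertical axis, log scale) by the number of listed Olig2 peaks that have the gene as their nearest (horizontal axis), with the count printed above each point. Csrp1 is 1 of 2 genes with 7 peaks, Wscd1 1 of 3 with 6, and Zcchc24 1 of 435 with 2.

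The list does not hold every numbered peak. Peak numbers rise with position along all 21 chromosomes and run from 1 to 7859, and 3644 of them (46.4%) belong to no listed peak, while no listed peak was without a motif hit. From the first to the last peak of each gene, 2 of 9 numbers were missing at Csrp1, 1 of 7 at Wscd1 and 3 of 5 at Zcchc24. Counts per gene are thus counts of listed peaks, and what the missing numbers stood for was not tested.

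The genes also differ in how much sequence is nearer to them than to any other gene, which bears on a count by nearest gene. Among protein-coding genes, the neighbors of Wscd1 are Nlrp1b, a sensor of the inflammasome that ends 507378 bp upstream, and Aipl1, a chaperone partner of photoreceptors, 239067 bp downstream. Neither had a listed peak. The sequence nearest to the Wscd1 start, measured out to the midpoints with the starts of the adjacent protein-coding genes, was 399957 bp. Of the 1420 genes with as much or more, 3, Wscd1 among them, had 6 or more peaks by RefSeq, and the median was 0. For Csrp1 this sequence was only 38868 bp and held 5 of its 7 peaks, 12.9 per 100 kb, against 1.50 at Wscd1 and 2.69 at Zcchc24. Of the 12671 genes with as much sequence as Csrp1 or more, 15 had 5 or more peaks. In the same comparison for Zcchc24, 427 of 7983 genes had 2 or more. Zcchc24 lies between Ppif, the mitochondrial cyclophilin (11175 bp away), and Anxa11, an annexin (73054 bp away), and neither had a listed peak. The 12 gaps between consecutive peaks of the 3 genes had a median of 6490.5 bp and 3 were under 1 kb. Over the list the median gap was 161635 bp and 2.22% were under 1 kb, but genes chosen for many peaks have short gaps by the choice.

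Introns held most of the peaks of these genes. By the deposited annotation 11 of the 15 lay in introns, against 32.4% of all listed peaks, with 4 of 7 at Csrp1, 5 of 6 at Wscd1 and both at Zcchc24. The Csrp1 peak at +19 bp was the only one annotated to a promoter. Genes chosen for many peaks can place few of them at a promoter, so the intron share is only a description. The share at other genes with many peaks is not given here. The median score of the 11 intron peaks was 12.9, the same as that of all 1364 intron peaks of the list.

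The E-box motif was no more frequent at these genes than elsewhere. This motif is the one of the deposited motifs whose most frequent word is AGCAGCTG, and a hit of it marked 9 of the 15 peaks, against 60.0% of all listed peaks. At Csrp1 3 of 7 had a hit, at Wscd1 5 of 6 and at Zcchc24 1 of 2. Read from the sequence, CANNTG stood in the 51 bp of 9 peaks, against 51.8% of the list, and CAGCTG in 6, against 32.9%. The sets of 9 are not the same peaks, since Csrp1 +5184 bp had a hit without CANNTG and Csrp1 +5664 bp CANNTG without a hit. Of the 6 peaks without a hit, the 3 at Csrp1 -63501 bp, Wscd1 +19227 bp and Zcchc24 +30044 bp shared another motif. It marked 4.39% of the list, with GGCGGGACCA as its most frequent word. The 3 peaks held it as the differing words TGTGCCCGCC, GGCCGGAACT and CGCTCCCACC. Every listed peak has some motif hit, so peaks without the E-box motif must carry another. The share of this motif among such peaks is not given here.

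The share with CAGCTG around the peak rested on the window. In 200 bp around the center, 11 of the 15 peaks held CAGCTG, against 46.8% of all nuclear peaks. In 100 bp the number was 6 (40.0%), against 39.9% of nuclear peaks, so 5 of the 11 peaks had the word only in the outer part of the window. These 5 were Csrp1 +19, +365 and +5184 bp and Wscd1 +3193 and +19227 bp. Control windows of 200 bp were placed by plus-strand coordinates, whatever the strand of the gene. In those 1 kb toward higher coordinates, 2 of 15 held CAGCTG, against 9.40% of nuclear peaks. In windows 1 kb toward lower coordinates 4 of 15 did, against 10.5%, and the 4 were at Wscd1 and Zcchc24. For Zcchc24, on the minus strand, that side is downstream in the direction of the gene. In 1 window of each side, downstream of Wscd1 +2132 bp and upstream of Wscd1 +20054 bp, the word was that of the 200 bp around another listed peak of Wscd1. Of the 14 copies of CAGCTG in the 200 bp of the 15 peaks, 7 were centered within 25 bp of the peak center, and over all nuclear peaks 59.0% of 2643 copies were.

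Among the 15 peaks, those with CAGCTG in their 51 bp included the strongest ones. Their 6 scores were 79.9, 67.9, 52.7, 22.5, 20.03 and 8.90, with a median of 37.6. The 9 peaks without it ranged from 5.25 to 26.9 with a median of 8.99. The ranges overlap, with Wscd1 -92106 bp low among the first and Wscd1 +19227 bp high among the second. Over the whole list the medians lay much closer, at 13.8 for the 1387 peaks with CAGCTG and 11.2 for the 2828 without. Since strong scores were among the reasons for choosing the genes, the wider gap among the 15 is only a description.

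**Figure D4:**
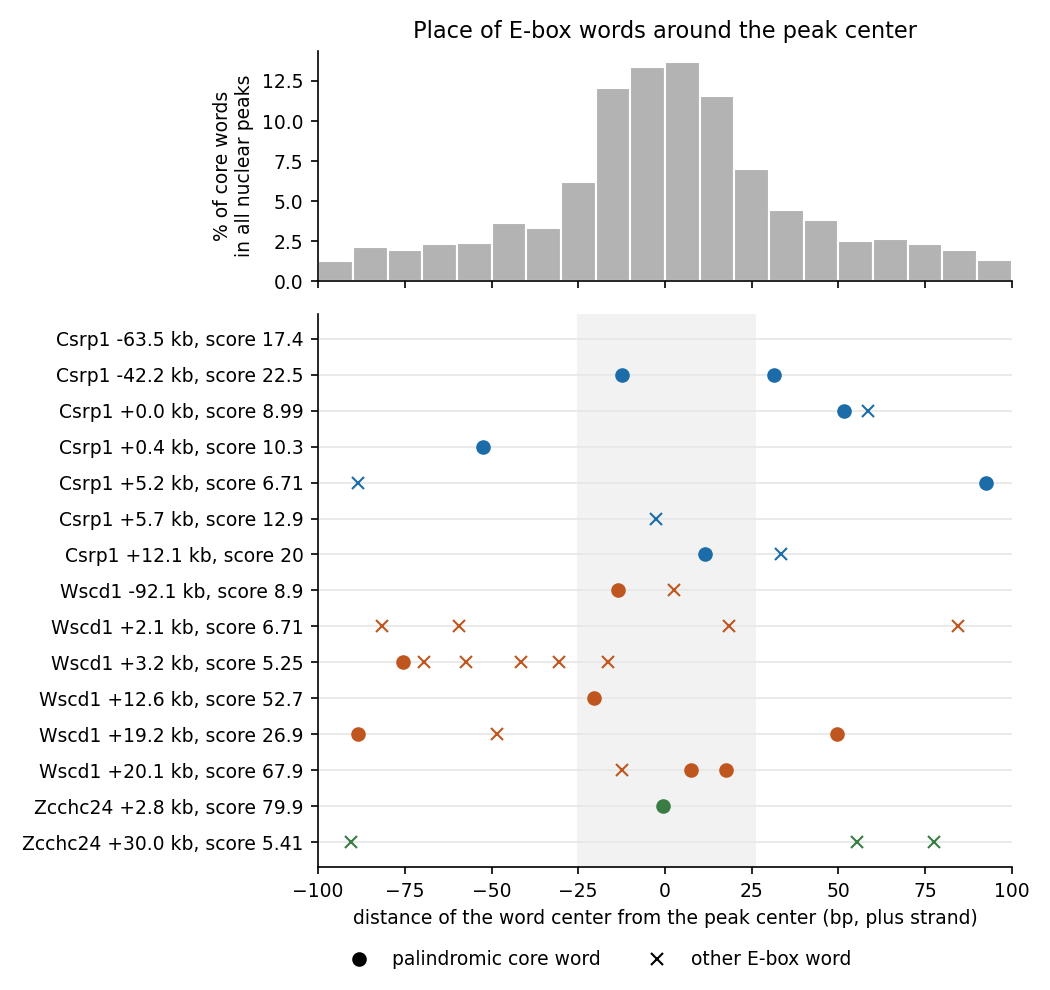
Upper panel, share of the 2643 CAGCTG words in the 200 bp around nuclear peaks by distance from the peak center (bins of 10 bp). Lower panel, place of each E-box in the 15 peaks, with dots for CAGCTG, crosses for other CANNTG words and the 51 bp of the peak shaded. The strong peaks at Zcchc24 +2794 bp, Wscd1 +20054 bp and Wscd1 +12632 bp have CAGCTG inside the shaded part, and Csrp1 -63501 bp has no E-box in the window.

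Related genes of each member were looked up in the list. Of the 21883 protein-coding genes, 14.1% had a listed peak assigned to them, which is the level to hold the following small counts against.
The counts leave out Csrp1, Wscd1 and Zcchc24, which were chosen for their peaks. Of the other 5 CRP and CRIP genes, the closest relatives of Csrp1, 1 had a peak, Csrp2, whose single peak at +33135 bp scored 5.06. The annotation places that peak in intron 10 of 16 of a transcript whose gene it does not name. Of 31 genes of other LIM proteins of actin structures, 6 had a peak (19.4%). The strongest was that of Lpp, a zyxin relative of cell adhesions, with a score of 54.3 at -110782 bp. Pxn, the focal adhesion scaffold paxillin, followed with 27.9 at +3272 bp, Pdlim5 with 15.7 and Ldb3 with 13.7. The Ldb3 peak lay upstream, at -2301 bp, and was annotated to the 3′ UTR of another transcript. Of 10 actin-side partners of CRP proteins and zyxin, only Actn1, an alpha-actinin, had a peak (12.4, at +30104 bp, in its intron 1).

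Among the other 4 WSC domain genes, 1 had a peak, Wscd2, the paralog of Wscd1. The single peak of Wscd2 lay at -57633 bp with a score of 6.71 and carried the E-box motif, against a highest score of 67.9 at Wscd1. Of 34 Golgi carbohydrate sulfotransferases, 9 had a peak (26.5%). These included Chst11, a chondroitin sulfotransferase (35.6), Hs3st6 and Ndst1, enzymes of heparan sulfate (33.4 and 25.9), Gal3st1, which makes the myelin lipid sulfatide (22.5, at -9153 bp, inside a neighboring gene), and Chst12 (19.1, at -157 bp in its promoter).
Of the other 23 CCHC zinc-knuckle genes, 4 had a peak (17.4%). The strongest were those of Zcchc2 (38.5, in its intron 5) and of the splicing factors Sf1 (17.8, at -147 bp) and Srsf7 (13.1, at -95 bp). The peak of Zcchc17, at -17 bp, scored 4.44.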

How the data were processed

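ChIP-Seq libraries of Olig2 and of Input Control were aligned by the authors to mm10 (GRCm38) with BWA, peaks were called with MACS2 on pooled reads, and HOMER annotated them. The score of each peak was used as deposited by the authors, and the GC content, deposited as a fraction, served to check positions. In GRCm38.p6, 4215 of 4215 GC fractions and 7177 of 7177 motif hits matched. Peaks were taken by their deposited gene name. Names of other genes were read from RefSeq through the deposited Entrez numbers, which matched for 3459 of 3463 genes. Words were searched on both strands with Python 3.11.15 and pysam 0.24.0, in a scan tested on simulated data. The windows were 200 bp around the center and 1000 bp downstream on the plus strand. Members, lists and alternatives were chosen with earlier results of these data known. No test was run. Named were the 3 genes with all peaks, their neighbors on each side, genes with at least 5 peaks, and up to 5 genes per list by highest score. A second small table and the Input Control were not used. Gm5294 and Gm33964 were named after their values were seen. Of the genes this rule names, 2 are not reported here.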

Additional observations from a re-analysis of the deposited data

How the results depend on the processing

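Of 53 alternative values 35 stayed within 1.5 times the main count (or 1 SD of the 15 scores for the median) and 18 did not. With a score of at least 10, Csrp1 kept 5 peaks, Wscd1 3 and Zcchc24 1, while 60.5% of all listed peaks remained. Of these remaining peaks 5 had a hit of the E-box motif, against 9 of all 15. The lower count goes with fewer peaks, and the share over the whole list at that score is not given here. At that score the CRP and CRIP genes and the WSC domain genes with a peak fell to 1 each, Csrp1 and Wscd1. With a score of at least 20, Csrp1 kept 2, Wscd1 3 and Zcchc24 1, while 24.8% of all listed peaks remained. CAGCTG stood in 6 peaks in a window of 100 bp, and in 4 windows 1000 bp upstream on the plus strand. By summed score Csrp1 ranked 32, Wscd1 3 and Zcchc24 65. Counting peaks within 10 kb of the TSS left 1 CRP and CRIP gene (Csrp1), 1 WSC domain gene (Wscd1), 5 sulfotransferases and 0 actin-side partners. The share of 14.1% of all protein-coding genes counts peaks at any distance and score, so it is no level for these reduced counts. Leaving out peaks with repeat-masked bases, chosen after seeing the data, left Zcchc24 with 1. Nearest starts in curated RefSeq and in GENCODE, also chosen after seeing the data, changed no count. The lists are counted here with Csrp1, Wscd1 and Zcchc24. The pooled list has no replicate and gives no read count for a peak, so the error of a score cannot be given.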
